A study of Homo sapiens with 4 samples.

Results

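Histidine triad proteins are a family of nucleotide hydrolases and transferases named for a motif in which alternating histidines line the active site. The members examined were HINT1, HINT2, HINT3, FHIT, APTX and DCPS, a family chosen on the increase of HINT3 in these same arrays. They are 6 of 20045 genes that the platform annotation names. All probes that the platform annotation names for these 6 genes were taken, which gave 9 probes of the 47322 in the scanner table. Each probe is shown apart because the HINT3 probes disagreed.

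RNA came from K562 cells, a human erythroleukemia line that carries the BCR-ABL fusion, on 4 Illumina bead arrays. Cells of the control group stably carried a short hairpin RNA (shRNA) control, and those of the knockdown group stably carried an shRNA that targets KLF3, a zinc-finger repressor related to the erythroid activator KLF1. Each group had 2 arrays, and the second array of each is labelled as a repeat. The labels do not state that the repeats came from other dishes or from other lines. The p-values below thus cover only array-to-array spread, which may be technical, within 1 line per group.

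Branches of the family differ in substrate. The HINT branch cleaves nucleoside phosphoramidates and aminoacyl-adenylates, FHIT hydrolyses diadenosine triphosphate, aprataxin (APTX) removes adenylate left on DNA ends by failed ligation, and DCPS hydrolyses the cap structure that remains after an mRNA has been degraded from its 3′ end. FHIT spans a common fragile site and is often lost or shortened in tumour cells.

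Detected probes, those with a detection p under 0.01, numbered between 15479 and 16182 per array. Of 10 erythroleukemia markers 9 had a probe, and all 9 were detected on all 4 arrays. None of 3 T cell, 3 B cell or 3 fibroblast markers was, while LYZ of 3 monocyte markers and EPCAM and KRT8 of 3 epithelial markers were. KLF3 gave no check of the labels, since both of its probes were undetected on all 4 arrays, with mean intensities on the brighter probe of 136 ± 9.76 for control and 139 ± 0.265 for knockdown (SD, n = 2). Values below are log2 intensities after background correction and quantile normalization unless called scanner intensities, and differences are knockdown minus control. A probe was kept for testing if both arrays of the control group, or both of the knockdown group, detected it; 15722 probes were kept.

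HINT3 had 3 probes that the annotation assigns to the same transcript, and they gave 3 different pictures. The probe ILMN_3251662 read 254 and 253 in control and 1787 and 1586 in knockdown as scanner intensities. Both knockdown arrays stood far above both control arrays, and all 4 arrays detected the probe. After normalization its log2 intensity was 7.11 ± 0.00 for control and 10.64 ± 0.08 for knockdown (SD, n = 2), a difference of 3.53 or 11.6-fold. The gene was picked for this increase, so the difference is a description and carries no test. Background correction sets part of its size. The ratio of mean scanner intensities was 6.66, and without background correction the log2 difference was 2.78. In the authors' processed values the same probe read 246 and 246 against 1766 and 1640.

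The second HINT3 probe, ILMN_1779076, was detected on every array as well and showed no such increase. It read scanner intensities of 394 and 363 for control and 392 and 361 for knockdown. The groups overlapped, and each knockdown array lay within a few intensity units of a control array. On the log2 scale its means were 8.02 ± 0.11 and 8.11 ± 0.05 (SD, n = 2), a difference of 0.09 that was smaller than the spread between the control arrays. The third probe, ILMN_2211630, was not well above background on any array. Its scanner intensities were 134 and 124 for control and 127 and 130 for knockdown, so it gives no fold. The 11.6-fold increase of HINT3 therefore rests on 1 of its 3 probes, and the other probe with signal on every array differed by 0.09. Which stretch of the HINT3 transcript each probe matches was not analysed here.

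**Figure D1:**
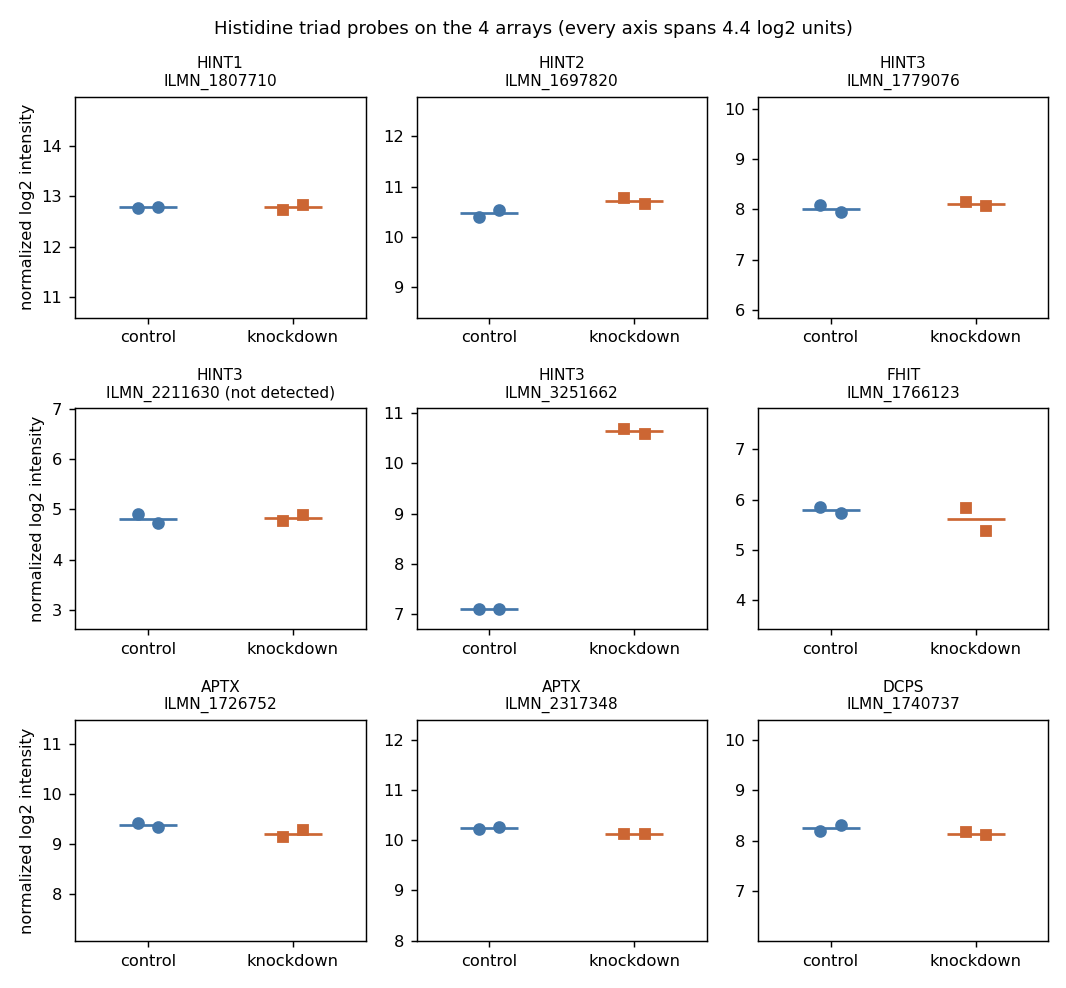
Normalized log2 intensity of the 9 histidine triad probes, 1 panel per probe, with circles for the 2 control arrays, squares for the 2 knockdown arrays and a bar at each group mean. Every vertical axis covers the same span, and only ILMN_3251662 of HINT3 shows groups far apart, at 7.11 and 10.64.

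Few genes on the array had probes that differed as much. The differences of the 2 kept HINT3 probes lay 3.44 log2 units apart. Among the 2399 genes with at least 2 kept probes the median distance between the lowest and the highest probe was 0.20, and 95% of genes lay under 0.71. HINT3 had the widest distance of these genes, ahead of N4BP2L2 at 1.82, a gene named after its values were seen. HINT3 itself was picked for the increase of 1 of these probes, so its rank is a description and carries no test. Distances over 1 were found for 48 genes. APTX, the other member with more than 1 kept probe, had a distance of 0.06. When probes were not filtered for detection, NTS had a wider distance than HINT3 (3.87 against 3.51), its name also chosen after the values were seen.

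**Figure D2:**
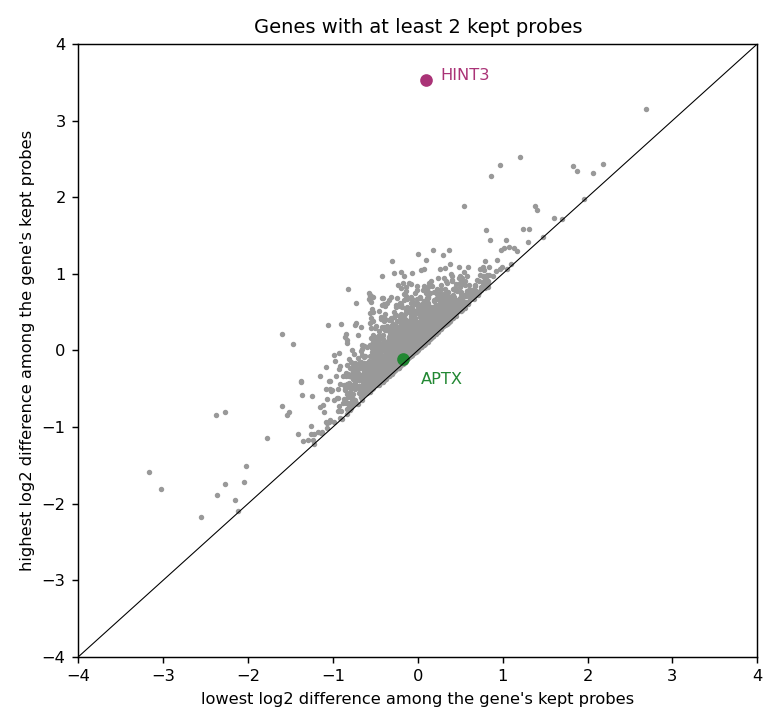
Each point is 1 of 2399 genes with at least 2 kept probes, placed by the lowest (horizontal) and highest (vertical) log2 difference, knockdown minus control, among its probes; the diagonal marks probes that agree. HINT3 stands far above the diagonal at 0.09 and 3.53, while APTX lies close to it.

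The other 5 genes were taken by family and not for their own values, and none of their 6 probes passed the test. All 6 were kept, and 0 of 6 reached a limma adjusted p under 0.05, where 34.5% of all kept probes did (16.9% higher and 17.5% lower). At an unadjusted p under 0.05 the count was 1, the probe of HINT2. Their differences ran from -0.20 to 0.25 with a median of -0.11, and over all kept probes the median was -0.01. Of all kept probes, 51.7% differed by no more than the largest of these 6 differences, so small differences of this kind were common. The arrays of the groups did not overlap for 4 of the 6 probes, against 71.4% of all kept probes.

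HINT1 encodes the cytosolic and nuclear phosphoramidase of the family, which also binds lysyl-tRNA synthetase and the transcription factor MITF. Its probe read scanner intensities of 7169 and 7242 for control and 7072 and 7172 for knockdown. These 4 values are close together, and the groups overlapped after normalization. The log2 difference was 0.00 (SE 0.09, limma adjusted p = 0.976), with a 95% interval from -0.21 to 0.22, or 0.864-fold to 1.16-fold.

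HINT2 encodes the mitochondrial phosphoramidase. Its probe read 1473 and 1589 for control and 1903 and 1670 for knockdown. Both knockdown arrays lay above both control arrays. The log2 difference was 0.25, or 1.19-fold, and fell short of the threshold (SE 0.10, limma adjusted p = 0.0919, 95% interval 0.01 to 0.49). HINT2 passed under 4 of the alternative settings, among them the authors' processed values (0.24, limma adjusted p = 0.014) and the fit with an intensity trend (0.25, limma adjusted p = 0.0152), so its call depends on the processing.

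FHIT encodes the diadenosine triphosphate hydrolase and was dim. Its scanner intensities were 171 and 165 for control and 167 and 148 for knockdown. The second knockdown array did not detect it, with a detection p-value of 0.0286 on that array. One knockdown array lay among the control arrays and the other below them. The log2 difference was -0.20 (SE 0.16, limma adjusted p = 0.376, 95% interval -0.59 to 0.20). Without the first knockdown array it was -0.43 (limma adjusted p = 0.0434), and without the second it was 0.04, so its sign rests on 1 array.

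APTX, whose loss causes ataxia with oculomotor apraxia, had 2 probes that agreed. ILMN_2317348 read 1310 and 1356 for control and 1254 and 1172 for knockdown, and ILMN_1726752 read 814 and 779 against 680 and 690. On both probes each knockdown array lay below each control array. The log2 differences were -0.12 (SE 0.09, limma adjusted p = 0.329) and -0.18 (SE 0.09, limma adjusted p = 0.194), neither past the threshold. Their 95% intervals reached down to -0.32 and -0.41, lower bounds of 0.80-fold and 0.76-fold.

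DCPS encodes the scavenger decapping enzyme. Its probe read 411 and 436 for control and 397 and 367 for knockdown, with both knockdown arrays below both control arrays. The log2 difference was -0.11 (SE 0.09, limma adjusted p = 0.401, 95% interval -0.33 to 0.12).

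**Figure D3:**
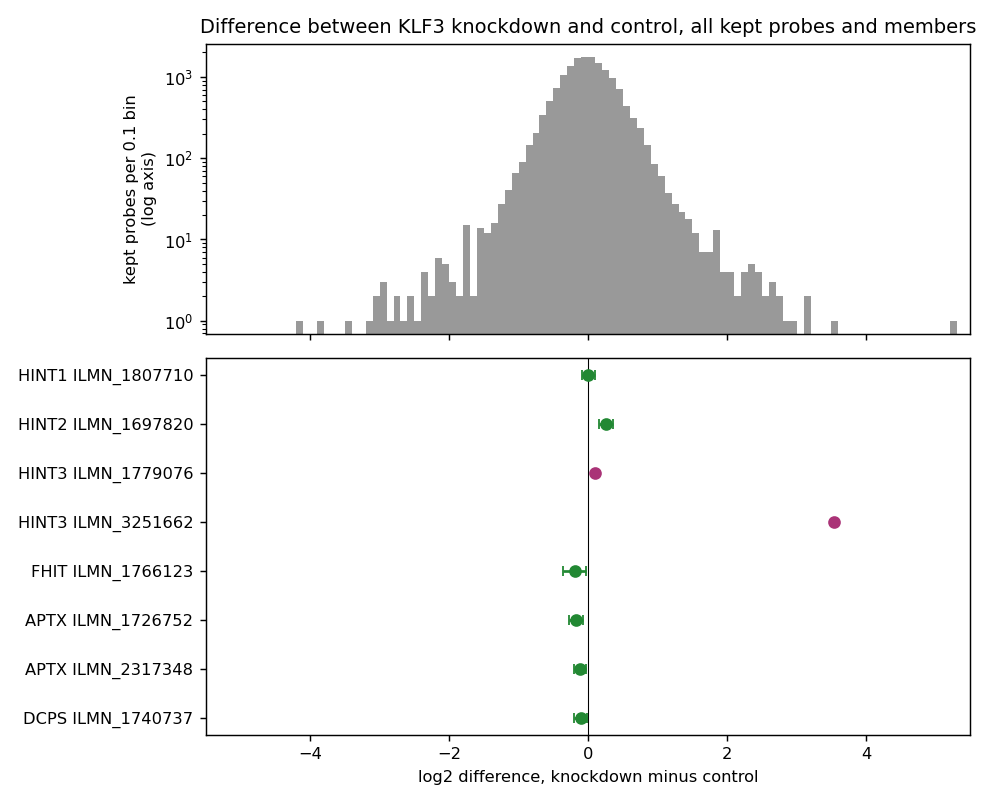
Top, number of kept probes by log2 difference, knockdown minus control, in bins of 0.1 on a log axis. Bottom, the 8 kept histidine triad probes, with limma standard errors for those tested; the HINT3 probe at 3.53 lies in the far right tail and the 7 others lie between -0.20 and 0.25.

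KLF3 binds CACCC elements, and the upstream stretches of the members are shown for whether these letters occur there. RefSeq promoters of GRCh38.p14 were at hand for 4 of the 6 members (HINT1, FHIT, APTX and DCPS), with 6 starts in all; HINT2 and HINT3 are named only. CACCC was searched on both strands in the 250 bases before each start. It occurred once before each of the 2 APTX starts and once before the DCPS start, and not before those of HINT1 and FHIT. The share of RefSeq promoters that held it was 54.7%, over 35116 of them. The stretches with a match follow, 5′ to 3′ on the strand of the gene, with CACCC, or GGGTG where it lies on the other strand, in capitals.
APTX, chr9:33025202-33025246, minus strand: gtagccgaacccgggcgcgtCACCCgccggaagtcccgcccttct
APTX second start, chr9:33001848-33001878, minus strand: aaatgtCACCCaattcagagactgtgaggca
DCPS, chr11:126303950-126303994, plus strand: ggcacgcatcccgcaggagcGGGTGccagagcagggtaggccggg
Both genes with the letters and both without them had probes short of the threshold. A match is no shown binding site, and the absence of a match says only that the letters are not in this window.

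The protein-coding genes next to HINT3 on chromosome 6 gave differences of both signs. Of the 5 genes on each side, 8 had a kept probe. By the brightest kept probe of each 3 rose and 1 fell, or 50%, where 35.9% of all genes passed (17.4% higher and 18.5% lower). Their median difference on these probes was 0.29, against -0.01 over all genes. After median scaling 1 of the 8 rose and 1 fell, and without background correction 4 rose and 1 fell. The 2 genes that flank HINT3 moved opposite ways. NCOA7, a nuclear receptor coactivator gene, fell by 0.48 (SE 0.10, limma adjusted p = 0.0153), and TRMT11, encoding a tRNA guanine methyltransferase subunit, rose 1.28-fold (SE 0.09 on the log2 scale, limma adjusted p = 0.0291). TRMT11 did not pass after scaling to the median (0.28, limma adjusted p = 0.101), nor without either control array or the first knockdown array. NCOA7 did not pass without either control array.

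The largest difference in this stretch after HINT3 was that of TPD52L1, which encodes a coiled-coil protein of the tumour protein D52 family and lies 4 genes away. It rose 2.79-fold (log2 difference 1.48, SE 0.12, limma adjusted p = 0.000921). Its second kept probe gave 1.49, so its probes agreed where those of HINT3 did not. HDDC2 rose 1.29-fold (limma adjusted p = 0.0249), a call lost after median scaling (limma adjusted p = 0.0546) and without either control array or the first knockdown array. CENPW (0.01), RNF146 (0.25), ECHDC1 (0.28) and RNF217 (0.31) did not pass, with limma adjusted p of 0.95, 0.202, 0.0928 and 0.0762. The other kept ECHDC1 probe gave -0.36, the other kept RNF146 probe -0.03, and the other 2 kept RNF217 probes -0.40 and 0.08. HEY2 and RSPO3 were undetected throughout.

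**Figure D4:**
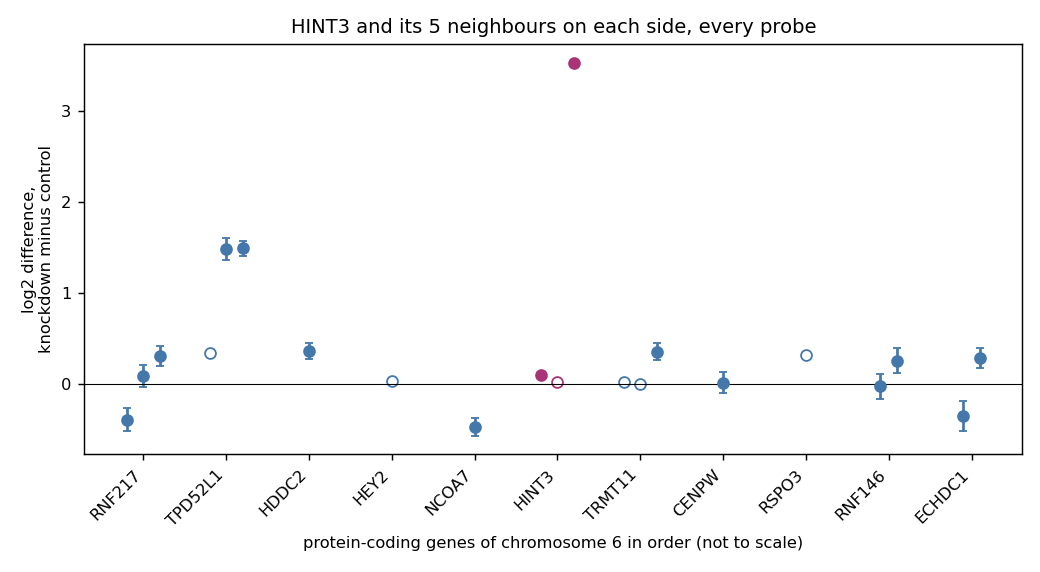
Log2 difference, knockdown minus control, of every probe of HINT3 and of the 5 protein-coding genes on each side, in chromosomal order and not to scale; filled points are kept probes with limma standard errors where tested, open points undetected probes. ILMN_3251662 of HINT3 stands alone at 3.53, and both kept TPD52L1 probes lie near 1.5.

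Some genes outside the family had a pattern over the 4 arrays close to that of ILMN_3251662. Likeness was the Euclidean distance between normalized log2 values, each probe centred on its own mean, among kept probes with 1 gene symbol. The nearest 5 were STXBP6, a syntaxin-binding protein gene, at a distance of 0.397, BPNT1, a bisphosphate nucleotidase gene, at 0.532, CA1, a red cell carbonic anhydrase gene, at 0.632, ADGRV1, an adhesion receptor gene, at 0.719, and TSPAN18, a tetraspanin gene, at 0.768. With 4 arrays in 2 groups such a distance reflects mainly the size of the group difference, and no test goes with it. BPNT1 was 8.59-fold and TSPAN18 6.84-fold higher after background correction, and their ratios of mean scanner intensities were 3.75 and 2.73. STXBP6, CA1 and ADGRV1 were undetected on the control arrays and at least 4.52-fold, 5.21-fold and 4.30-fold higher on the knockdown arrays, bounds against the dimmest detected probe that hold only on the background-corrected scale. Their scanner ratios were smaller, at 2.74, 2.49 and 2.38. On the second kept probe of STXBP6 the bound on that scale was 5.16-fold and the scanner ratio 2.33. The second TSPAN18 probe was undetected on every array, and the second ADGRV1 probe was detected on 1 knockdown array.

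Genes that work beside the members were read from 7 lists, by the brightest kept probe of each gene. Of 81 genes listed 65 were measured, of which 10 rose and 8 fell, 27.7% of them against 35.9% of all genes. The median difference was 0.08, against -0.01 over all genes. Without control array 1 or control array 2, 5 of the genes passed in place of 18, as the count over all kept probes fell from 5420 to 1868 and 1809.

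Other proteins with a fold related to the histidine triad were all measured, and 0 of 3 passed, where 35.9% of all genes did. GALT, the galactose-1-phosphate uridylyltransferase gene, differed by 0.25 (limma adjusted p = 0.068), CWF19L1 by 0.23 (limma adjusted p = 0.0852) and CWF19L2 by -0.13 (limma adjusted p = 0.32). The other kept GALT probe gave 0.43 and is not in this count, and CWF19L1 and CWF19L2 had 1 kept probe each. GALT and CWF19L1 passed under the same 4 alternative settings as HINT2. Genes reported as HINT1 partners, among them KARS1, MITF, USF2 and RUVBL1, gave 0 of 7 past the threshold, against 35.9% of all genes. Their median was 0.08. The count was 2 of 7 without background correction and in the authors' processed values, where 42.1% and 42.2% of all kept probes passed. It was 1 with normexp and 0 after median scaling. Other kept probes gave -0.01 for MITF and 0.17 for USF2 and reached 0.40 for RUVBL1. The probes read here gave 0.50, -0.25 and 0.13. Of the reported FHIT partners, the mitochondrial chaperonin genes HSPD1 and HSPE1 were measured. They differed by -0.26 and -0.49 (limma adjusted p = 0.066 and 0.0727), and each passed under 6 of the alternatives. Their other kept probes reached -0.72 and -0.78.

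Nudix hydrolases form another family that cleaves dinucleotide polyphosphates and related nucleotides. Of 14 measured, 4 rose and 2 fell, 42.9% of them against 35.9% of all genes, with a median of 0.20. NUDT3, encoding a diphosphoinositol polyphosphate phosphohydrolase, fell by 0.85 (SE 0.09, limma adjusted p = 0.00228). NUDT21, encoding a subunit of the cleavage factor that guides choice of poly(A) site, rose 1.66-fold (limma adjusted p = 0.00314). NUDT7, a peroxisomal coenzyme A hydrolase gene, and NUDT6 rose 1.46-fold and 1.40-fold, and neither passed without either control array. The 4 kept NUDT6 probes ranged from 0.24 to 0.48 on the log2 scale. NUDT2, the hydrolase of diadenosine tetraphosphate, differed by -0.02 (limma adjusted p = 0.863).

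DNA strand break repair genes around aprataxin moved both ways, with 4 up and 3 down of 11 measured. That is 63.6% of them, against 35.9% of all genes, and their median difference was 0.10. XRCC1, the scaffold that recruits aprataxin to single-strand breaks, rose 1.95-fold (log2 difference 0.96, SE 0.10, limma adjusted p = 0.00239). TDP1, which removes stalled topoisomerase from DNA ends, rose 2.02-fold on its brighter probe (limma adjusted p = 0.0016), but its other kept probe gave -0.06. FEN1, the flap endonuclease gene, and APEX1, the abasic site endonuclease gene, fell by 0.51 and 0.37 (limma adjusted p = 0.0095 and 0.0252). Their other kept probes gave -0.54 and -0.20. Neither FEN1 nor APEX1 passed without either control array, and APEX1 did not without the second knockdown array.

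Genes of mRNA decay were read in 2 lists, and their counts moved with the processing. Only the exosome list stands for decay upstream of DCPS. Of 15 measured decapping genes 1 rose and 2 fell, with a median of 0.04: the scaffold gene EDC4 rose 1.35-fold, and PATL1 and LSM3, whose products bind the ends of deadenylated mRNA, fell by 0.44 and 0.33 (limma adjusted p between 0.0151 and 0.0288). These 3 calls were lost without either control array, and that of LSM3 without any 1 array. Of 14 genes of the exosome and its cytoplasmic helper complex 1 rose and 1 fell, with a median of 0.08. EXOSC4, encoding a core ring subunit, fell by 1.08 (SE 0.09, limma adjusted p = 0.0012), and EXOSC2, encoding a cap subunit, rose 1.31-fold (limma adjusted p = 0.0303), the latter not passing after median scaling (0.33, limma adjusted p = 0.0791) or when any 1 array was left out. Against 3 decapping and 2 exosome genes here, 5 and 5 passed without background correction, 5 and 5 in the authors' processed values, 5 and 4 with normexp and 6 and 5 with an intensity trend. The share of all genes that passed was 35.9% in the main fit. In those other settings between 41.1% and 42.2% of all kept probes passed, against 34.5% in the main fit.

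**Figure D5:**
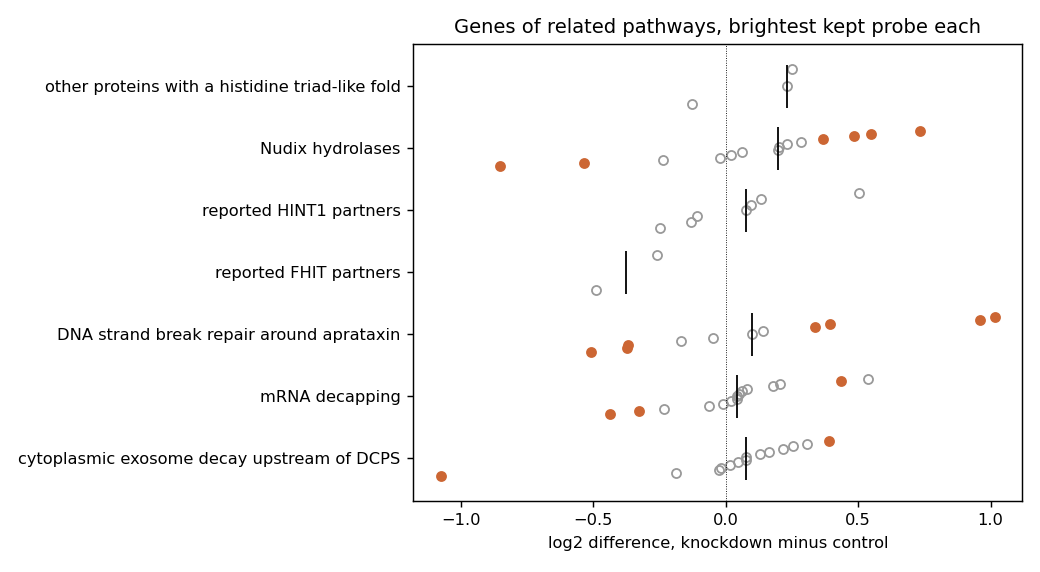
Log2 difference, knockdown minus control, of 65 measured genes in 7 related lists (1 gene is in 2 lists), by the brightest kept probe; filled points passed the limma test, open points did not, and a bar marks the median of each list. Medians lie between -0.38 and 0.23, and the points past the threshold fall on both sides of 0.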

How the data were processed

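Per the labels' protocols, Trizol was used for RNA extraction and an Illumina amplification kit for labelling. The deposited scanner table held a mean intensity on a linear scale and a detection p-value for each probe and array; per the file headers and values it was neither normalized nor background-subtracted. The authors' processed intensity table had nearly the same distribution on all arrays; the program behind it was not given in the sources used here. Array number limits the precision.

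Intensities were corrected and quantile-normalized with neqc (limma 3.58.1, R 4.3.3; offset 16). Differences are on the scale of log2 of corrected signal plus offset, which understates changes of dim probes. The 15722 probes that both arrays of some group detected (p under 0.01) were kept, each probe apart. The groups were compared in 1 limma model (lmFit and eBayes, two-sided; degrees of freedom, 2 residual and 4.10 prior). P-values were adjusted by Benjamini-Hochberg over all kept probes, with calls under 0.05. An exact permutation test of these arrays cannot go below p = 0.333. Bounds for undetected groups use the dimmest detected probe of each array.

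Symbols came from the platform annotation, updated by gene identifier through RefSeq genes of GRCh38.p14 (30073 of 30112 matched; 17202 probes are unnamed here). Members and lists were chosen with earlier results of these data known. Named by rule were every member probe, KLF3, the neighbours of HINT3 and the 5 probes most like ILMN_3251662, the HINT3 probe with the largest difference. Of each list the rule took the 4 smallest adjusted p among genes past the threshold, or every measured gene of lists with at most 5. Further names were picked with values known. Alternatives covered normalization, background, filter, probe rule, intensity trend, a replicate block and each array left out.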

Additional observations from a re-analysis of the deposited data

How the results depend on the processing

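Across 14 alternatives the difference of the HINT3 probe ILMN_3251662 stayed positive, between 2.78 and 3.57. It was 2.78 without background correction, 2.79 in the authors' processed values and 3.04 with normexp and an offset of 50. Background left in the signal, or a larger offset added after correction, shrinks log2 differences by construction. The distance between the kept HINT3 probes was the widest of any gene with at least 2 kept probes in 12 of 13 alternatives. With 1 probe per gene there is none. This rank follows in part from the choice of HINT3 for its increase. FHIT has no value where all 4 arrays must detect a probe. Member probes other than HINT3 past the threshold numbered 1 without background correction, 1 in the authors' processed values, 1 with normexp and 1 with an intensity trend, each time HINT2, and between 0 and 1 when an array was left out. Genes of the related lists past it numbered 30 without background correction, 30 in the authors' processed values, 28 with normexp, 30 with an intensity trend and 8 without a filter, and between 5 and 14 with an array left out. All kept probes past it numbered 5420, 2275 without a filter (47322 probes tested) and between 1809 and 4786 with an array left out. The share of all probes tested that passed was 42.1% without background correction, 42.2% in the authors' processed values and 41.1% with normexp. It was 42.0% with an intensity trend, against 34.5% in the main fit. Without a filter 77 genes of the lists were tested, and 4.81% of all probes passed. Median scaling made 37.8% of the called probes higher in place of 49.1%. Without a filter, and so adjusted over all 47322 probes, TRMT11, NCOA7, HDDC2, APEX1, EDC4, PATL1, LSM3 and EXOSC2 did not pass (adjusted p between 0.0612 and 0.11). Signs turned for differences near 0. HINT1 was -0.0116 after median scaling and between -0.0423 and 0.0585 with an array left out. CENPW was -0.0123 after median scaling and between -0.13 and 0.15, and FHIT between -0.43 and 0.0359, with an array left out. The cause was not tested. Same-numbered arrays did not deviate together (r = 0.0089 across probes), and a replicate block gave 4820 probes past the threshold and 0 of the 6 other member probes; TRMT11 and LSM3 did not pass under it (adjusted p = 0.0501 and 0.0506). Probes near background, such as that of FHIT, limit what these arrays show.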
